A study of Homo sapiens with 9 samples.

Results

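The genes of the JAK-STAT-IRF-SOCS axis described here are JAK1, TYK2, STAT2, STAT3, IRF1, IRF7, IRF9, SOCS1 and SOCS3. They were picked by symbol, as the table row of highest mean FPKM for each, and make up 9 of the 60605 genes in the table. RNA-seq was performed in TE13 cells, an established esophageal squamous cell carcinoma (ESCC) line, transfected with a control siRNA, with PARylator siRNA.1 or with PARylator siRNA.2, with 3 libraries per group. PARylator is the lncRNA LINC00885. All groups are the same cell line, a single control siRNA serves both knockdowns, and the labels name no added cytokine.

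Janus kinases such as JAK1 and TYK2 sit on the tails of cytokine receptors and phosphorylate STAT proteins once a ligand binds. Type I and type III interferons use JAK1 with TYK2 to build ISGF3, a complex holding STAT2 and IRF9 that switches on genes with an interferon-stimulated response element (ISRE). Interferon gamma acts mainly at gamma-activated sites (GAS), cytokines of the IL-6 family mainly through STAT3, and SOCS proteins, themselves products of STAT-driven transcription, shut the receptors down.

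Total counts on genes lay between 15337917 and 22559998 per library. LINC00885 was close to the limit of detection, with 25 counts summed over the control libraries, 11 over the siRNA.1 and 6 over the siRNA.2 libraries, and its fall did not pass the test with either siRNA (adjusted p = 0.376 and 0.0659 from edgeR). By qPCR, the paper reports lower PARylator in siRNA-treated ESCC cells, with recovery when an siRNA-resistant PARylator plasmid was added. Below, knockdown is used as a name for the siRNA groups. Squamous epithelial markers were high in each library, with a summed level of 1259 to 1263 FPKM in control cells, 1129 to 1142 for siRNA.1 and 1117 to 1136 for siRNA.2, where 4 of 14 markers rose and 9 fell with each siRNA. The summed level of 12 blood cell markers was 5.87 to 6.84 FPKM in control cells, 8.62 to 9.74 for siRNA.1 and 8.30 to 9.50 for siRNA.2. Of the 8 blood cell markers that could be tested, 6 rose and 1 fell with siRNA.1 and 5 rose and 1 fell with siRNA.2, and MS4A1 was at 0 in every library. Over all genes, 15.0% rose and 15.2% fell with siRNA.1 and 15.8% and 15.1% with siRNA.2. The number of blood cell markers that rose ranged from 1 to 6 over 18 alternatives with each siRNA. PTPRC, a riser near the floor, was at 0.0333, 0.153 and 0.147 FPKM in control, siRNA.1 and siRNA.2. LAPTM5, which fell, was at 4.95, 3.00 and 2.40 FPKM. The summed level of 10 fibroblast and endothelial markers was 3.43 to 3.99, 2.15 to 2.53 and 1.99 to 2.27 FPKM in the same order. The part of these shifts in the results for the 9 genes was not tested. In bulk RNA, a change in the number of cells of a kind cannot be told apart from a change in RNA per cell.

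The stretches upstream of transcription starts are shown where they held the DNA element of an interferon-activated complex. RefSeq promoters (GRCh38) were found for 8 of the 9 genes, 11 promoters in all, and none for IRF7. The 250 bases before each start were searched on both strands for GAAANNGAAA, the core of an ISRE, and for TTCNNNGAA, the core of a GAS. The ISRE-type letters occur in 3.02% of all 35114 RefSeq promoters and the GAS-type letters in 6.57%. IRF1 and IRF9 held a GAS-type match and SOCS1 an ISRE-type match, which the capitals mark below, and JAK1, TYK2, STAT2, STAT3 and SOCS3 held neither in these windows. The SOCS3 windows were chr17:78360926-78361175 and chr17:78359668-78359917, on the minus strand. They do not cover the bases just before the SOCS3 start at 78360077 in the deposited table, which were not searched. The IRF1 window, chr5:132490774-132491023, lies inside the gene as placed in the deposited table (132440440 to 132508719, minus strand). The bases just before the IRF1 start at 132508719 in that table were not searched either. A match is a description of the letters and not evidence of binding.
IRF1, GAS-type, chr5:132490839-132490947, minus strand: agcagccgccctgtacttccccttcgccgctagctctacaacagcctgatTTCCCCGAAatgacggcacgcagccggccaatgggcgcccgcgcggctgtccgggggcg
IRF9, GAS-type, chr14:24161192-24161220, plus strand: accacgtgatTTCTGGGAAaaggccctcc
SOCS1, ISRE-type, chr16:11256258-11256367, minus strand: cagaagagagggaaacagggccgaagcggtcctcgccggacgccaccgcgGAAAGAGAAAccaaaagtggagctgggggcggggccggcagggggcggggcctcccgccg
The match ended 115 bases before the RefSeq start in IRF1, 54 bases before it in IRF9 and 103 bases before it in SOCS1. All 29 bases of the IRF9 stretch are annotated as exonic in GENCODE release 44, while the IRF1 and SOCS1 stretches touch no annotated exon there.

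In control cells, STAT2 and SOCS3 had the highest FPKM of the 9 genes and IRF7 the lowest. FPKM divide by all annotated exonic bases of a gene, 12265 for IRF1 and 2734 for SOCS3. The order across genes therefore depends on the annotation and is not one of mRNA molecules. STAT2 stood at 17.7 ± 1.02 FPKM (mean ± SD, n = 3), SOCS3 at 15.5 ± 0.281, STAT3 at 12.9 ± 0.630, JAK1 at 11.9 ± 0.576 and TYK2 at 11.5 ± 0.709. IRF1 followed at 6.75 ± 0.146 FPKM, IRF9 at 4.50 ± 0.198, SOCS1 at 1.56 ± 0.369 and IRF7 at 0.140 ± 0.0656. In this order the libraries of STAT3 and JAK1 overlapped, as did those of JAK1 and TYK2, and all other neighbours were apart. With siRNA.1 the level of IRF9 lay above that of IRF1, and with siRNA.2 their libraries overlapped. With siRNA.2 JAK1 came before STAT3, again with overlapping libraries. STAT2 was the highest, SOCS1 next to last and IRF7 the lowest in all 3 groups.

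**Figure D1:**
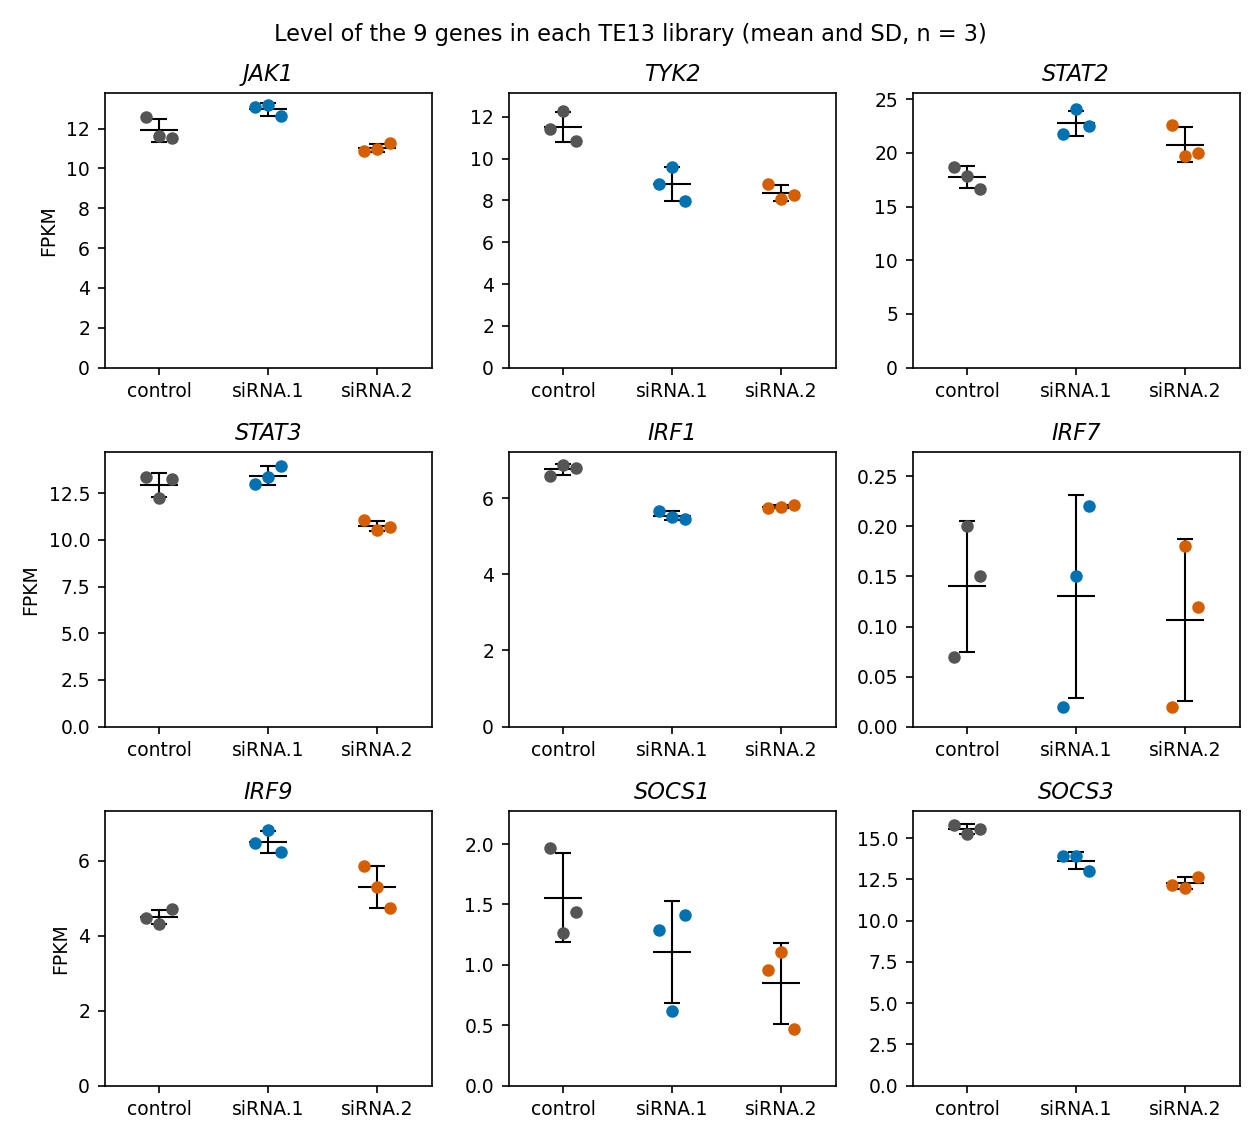
FPKM (y axis, from 0, scaled per panel) of each of the 9 genes in control, siRNA.1 and siRNA.2 libraries (x axis). Points are single libraries, the long dash is the mean and the bars are the SD of 3 libraries. STAT2 and IRF9 libraries sit above control with both siRNAs, TYK2, IRF1 and SOCS3 libraries below control with both, and JAK1 and STAT3 libraries with siRNA.2 below those of both other groups.

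With the siRNAs these genes differed from control by modest amounts and in different directions. Of the 9 genes, 2 rose (STAT2, IRF9) and 3 fell (TYK2, IRF1, SOCS3) with siRNA.1 in edgeR's quasi-likelihood test at an adjusted p under 0.05, where 15.0% of the 21395 genes tested were called higher and 15.2% lower. With siRNA.2, 1 rose (STAT2) and 6 fell (JAK1, TYK2, STAT3, IRF1, SOCS1, SOCS3), against 15.8% of all genes higher and 15.1% lower. Called changes ranged from -25.2% to 41.7% with siRNA.1 and from -46.3% to 16.3% with siRNA.2, and 0 of the 9 genes passed the test with a log2 fold change of 1 or more in size. The 9 genes had a median log2 fold change of -0.15 (siRNA.1) and -0.28 (siRNA.2), beside -6e-04 and 0.0040 over all genes tested. Both comparisons share the control libraries, so a control library that is off shifts both. Between the siRNAs, 2 of the 9 genes differed (JAK1 and STAT3, lower with siRNA.2), against 6.06% of all genes called lower and 6.10% higher.

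**Figure D2:**
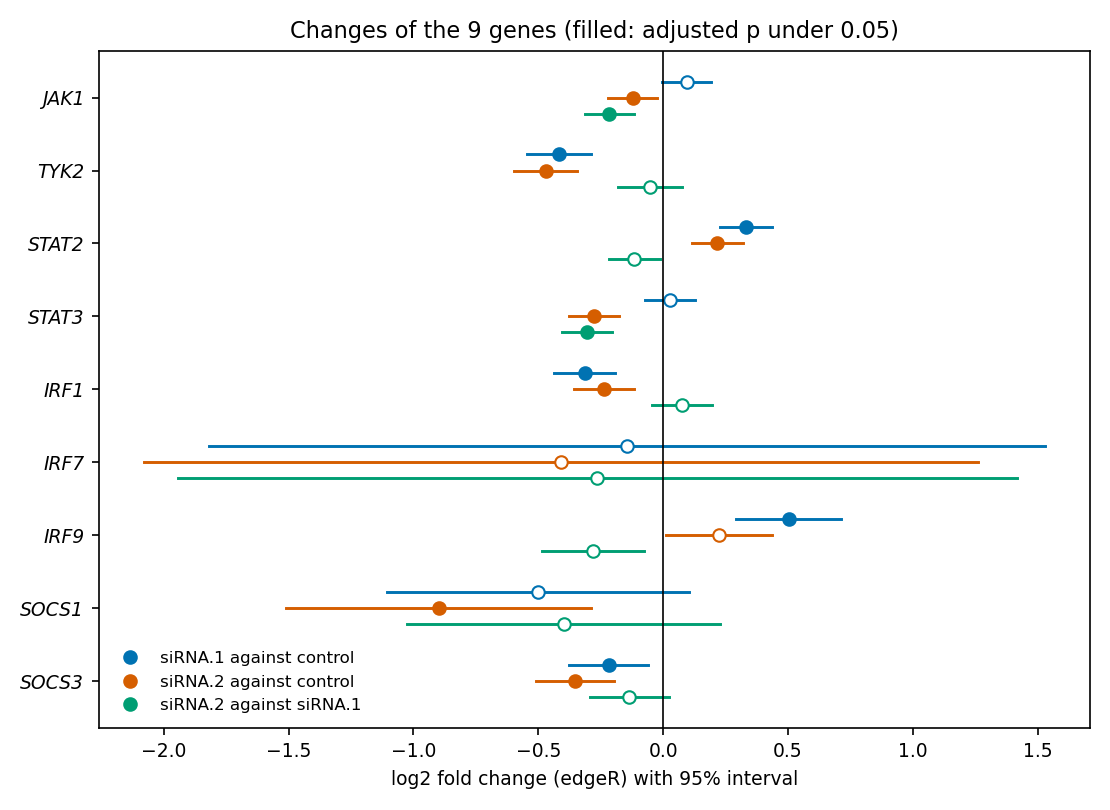
Log2 fold change from edgeR (x axis) of the 9 genes (y axis) for siRNA.1 against control, siRNA.2 against control and siRNA.2 against siRNA.1, with 95% intervals as lines. Filled points have an adjusted p under 0.05, and all lie between -0.90 and 0.50. The intervals of IRF7 and SOCS1 are the widest.

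Of the kinases, TYK2 fell with both siRNAs, while JAK1 separated the siRNAs from each other. TYK2 (ENSG00000105397, chromosome 19, 10350529 to 10380572), the kinase bound to the IFNAR1 chain and to receptors of the IL-10 and IL-12 families, was read at 11.43, 12.26 and 10.85 FPKM in control cells. The siRNA.1 libraries gave 8.80, 9.61 and 7.96 FPKM and the siRNA.2 libraries 8.79, 8.06 and 8.27. Each knockdown library was below each control library, and the knockdown groups overlapped. Its log2 fold change came to -0.42 for siRNA.1 (standard error 0.065, with an edgeR adjusted p of 1.94e-09) and -0.47 for siRNA.2 (0.064, 5.04e-12). The difference between siRNAs was -0.05, with a 95% interval of -0.18 to 0.08.

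JAK1 (ENSG00000162434, chromosome 1, 64833229 to 65067754), shared by interferon, IL-6 family and common gamma chain receptors, was read at 12.58, 11.63 and 11.54 FPKM in control cells. The siRNA.1 libraries gave 13.07, 13.20 and 12.61 FPKM and the siRNA.2 libraries 10.87, 10.97 and 11.26. All siRNA.1 libraries were above and all siRNA.2 libraries below the control libraries, with narrow gaps. The siRNA.1 change of 0.09 (log2) did not pass (adjusted p = 0.155 from edgeR, 95% interval -0.0041 to 0.19), and the siRNA.2 change of -0.12 passed narrowly (adjusted p = 0.0497 from edgeR). This siRNA.2 call was lost in 10 of 18 alternatives, among them leaving out control library 1 (-0.08, adjusted p = 0.312 from edgeR), siRNA.1 library 3 (0.0599), or siRNA.2 library 1, 2 or 3 (0.177, 0.0996 and 0.0527). The direct difference between the siRNAs was firmer, at -0.22 (standard error 0.050, adjusted p = 0.000356 from edgeR), although limma on log2(FPKM + 0.1) left it at an adjusted p of 0.0778 and on log2(FPKM + 1) of 0.0522.

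Of the STAT genes, STAT2 rose with both siRNAs and STAT3 fell with siRNA.2. STAT2 (ENSG00000170581, chromosome 12, 56341597 to 56360167), the STAT specific to type I and III interferon signalling, was read at 18.68, 17.83 and 16.64 FPKM in control cells. Values with siRNA.1 were 21.74, 24.04 and 22.46 FPKM, and those with siRNA.2 were 22.61, 19.68 and 19.97 FPKM. Both knockdown groups stood wholly above control and overlapped each other. STAT2 rose by 0.33 on the log2 scale under siRNA.1 (standard error 0.053, with an edgeR adjusted p of 4.61e-09) and by 0.22 under siRNA.2 (0.053, 0.000235). With limma the siRNA.2 call was lost, at an adjusted p of 0.0870 with a pseudocount of 0.1 FPKM and 0.0653 with 1 FPKM. The difference between the siRNAs was -0.12 (95% interval -0.22 to -0.01, adjusted p = 0.145 from edgeR) and passed without siRNA.2 library 1 (-0.17, adjusted p = 0.0319 from edgeR).

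STAT3 (ENSG00000168610, chromosome 17, 42313324 to 42388540), the main effector of IL-6, LIF and oncostatin M, was read at 13.34, 12.22 and 13.28 FPKM in control cells. The siRNA.1 libraries gave 12.97, 13.38 and 13.98 FPKM, overlapping control. The siRNA.2 libraries gave 11.06, 10.55 and 10.68 FPKM, below every library of the other groups. For siRNA.1 the log2 fold change was 0.03 (95% interval -0.07 to 0.13, adjusted p = 0.773 from edgeR), and for siRNA.2 it was -0.28 (standard error 0.051, adjusted p = 5.39e-07). The difference of -0.30 between the siRNAs passed as well (standard error 0.051, adjusted p = 1.40e-07 from edgeR) and kept its call in all 18 alternatives.

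Of the IRF genes, IRF1 fell with both siRNAs, IRF9 rose with siRNA.1, and IRF7 was almost silent. IRF1 (ENSG00000125347, chromosome 5, 132440440 to 132508719), the GAS-controlled activator of antigen presentation and chemokine genes, was read at 6.59, 6.87 and 6.80 FPKM in control cells. The values were 5.66, 5.50 and 5.44 FPKM for siRNA.1 and 5.73, 5.76 and 5.81 FPKM for siRNA.2. The groups did not overlap, and spread within a group was small, with an SD of 0.0404 FPKM with siRNA.2. This is a log2 fold change of -0.31 for siRNA.1 (standard error 0.062, with an edgeR adjusted p of 3.62e-06) and of -0.24 for siRNA.2 (0.061, 0.000547). The difference between the siRNAs was 0.08 (95% interval -0.04 to 0.20). IRF1 shares 2805 of its 12265 exonic bases (22.9%) with IRF1-AS1 on the opposite strand, which had 225 counts summed over the control libraries, 145 with siRNA.1 and 202 with siRNA.2 beside 4045 counts for IRF1 in control cells. Whether counting used strand is not given in the sources used here, so reads in the shared bases cannot be told apart.

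IRF9 (ENSG00000213928, chromosome 14, 24161265 to 24166565), the DNA-binding subunit of ISGF3, was read at 4.46, 4.32 and 4.71 FPKM in control cells. Its siRNA.1 values were 6.46, 6.81 and 6.24 FPKM and its siRNA.2 values 5.85, 5.30 and 4.75 FPKM. The siRNA.1 libraries stood above all others, while the lowest siRNA.2 library lay just above the highest control library. Under siRNA.1 IRF9 had the largest rise among the 9 genes, 0.50 on the log2 scale (standard error 0.108, adjusted p = 2.72e-05 from edgeR), while the siRNA.2 value of 0.22 (0.108) did not pass (adjusted p = 0.110 from edgeR). The difference of -0.28 between the siRNAs missed the threshold (adjusted p = 0.0565 from edgeR) and passed in 4 of 18 alternatives, including the fit without siRNA.2 library 1 (-0.34, adjusted p = 0.0364 from edgeR). In GENCODE release 44, IRF9 shares 1544 exonic bases with ENSG00000259529 on the same strand, which had 86, 136 and 155 counts summed over the control, siRNA.1 and siRNA.2 libraries beside 788 for IRF9 in control cells, so counting could have split their reads.

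IRF7 (ENSG00000185507, chromosome 11, 612553 to 615983), the amplifier of interferon alpha production in immune cells and itself a textbook ISGF3 target, was almost unread, with 3, 8 and 7 counts in control cells. The siRNA.1 libraries held 1, 6 and 10 counts and the siRNA.2 libraries 1, 9 and 7, and all libraries lay between 0.02 and 0.22 FPKM. Summed over a group, this was 0.369 CPM in control cells (95% exact binomial interval 0.218 to 0.583), 0.336 (0.196 to 0.538) under siRNA.1 and 0.276 (0.161 to 0.442) under siRNA.2, intervals that cover counting error only. No group stood apart, and the log2 fold changes of -0.15 (95% interval -1.82 to 1.53) and -0.41 (-2.08 to 1.26) have intervals that reach beyond 1 log2 unit either way. A change in IRF7 was not detectable at this depth.

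Both SOCS genes had lower mean values in the siRNA libraries, and SOCS3 was called lower with both siRNAs. SOCS3 (ENSG00000184557, chromosome 17, 78356778 to 78360077), the inhibitor that binds gp130 and JAK kinases and a direct STAT3 target, was read at 15.81, 15.25 and 15.57 FPKM in control cells. The siRNA.1 libraries were at 13.94, 13.89 and 13.03 FPKM and the siRNA.2 libraries at 12.16, 11.97 and 12.65 FPKM. The groups did not overlap, with siRNA.2 lowest. SOCS3 changed by -0.22 (log2) under siRNA.1 (standard error 0.080, with an edgeR adjusted p of 0.0245) and by -0.35 under siRNA.2 (0.080, 6.59e-05). The siRNA.1 call was lost without control library 1 (-0.21, adjusted p = 0.0692 from edgeR), control library 3 (-0.22, 0.0616) or siRNA.1 library 3 (-0.19, 0.118). The difference between the siRNAs was -0.13 (95% interval -0.29 to 0.02).

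SOCS1 (ENSG00000185338, chromosome 16, 11254417 to 11256204), the feedback inhibitor of JAK1 and TYK2 in interferon signalling, was read at 1.97, 1.26 and 1.44 FPKM in control cells. Values of 1.29, 0.62 and 1.41 FPKM with siRNA.1 overlapped control, and values of 0.96, 1.11 and 0.47 FPKM with siRNA.2 lay below every control library. These values rest on 17 to 54 counts per library. The siRNA.1 change of -0.50 (log2) had a 95% interval of -1.10 to 0.10 (adjusted p = 0.235 from edgeR), and the siRNA.2 change of -0.90 passed (standard error 0.312, adjusted p = 0.0156 from edgeR). The siRNA.2 call was lost in 5 of 18 alternatives, among them without control library 1 (-0.70, adjusted p = 0.139 from edgeR) and without siRNA.2 library 3 (-0.60, adjusted p = 0.201). The difference between the siRNAs was -0.40 (95% interval -1.02 to 0.23). SOCS1 lies wholly inside RMI2, which is on the opposite strand and had 899 counts in control cells beside 135 for SOCS1, but the exons of the genes do not overlap in GENCODE release 44.

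Among the other members of these families analysed here, a minority was called with both siRNAs. Of 17 such genes 15 could be tested, and IRF4 and IRF8 lay under the mean of 0.1 FPKM required. With siRNA.1, 1 rose and 7 fell, with siRNA.2, 1 rose and 2 fell, and the median log2 fold change was -0.21 and -0.08. Over all genes, 15.0% rose and 15.2% fell with siRNA.1 and 15.8% rose and 15.1% fell with siRNA.2, so of these counts the 7 falls with siRNA.1 alone stood above the background in the main test. That count ranged from 3 to 7 over 18 alternatives, so its excess depends on the method. STAT6, the effector of IL-4 and IL-13, fell with both siRNAs (log2 -0.30 and -0.63). SOCS6 rose with both (0.49 and 0.29). SOCS5 fell with both (-0.21 and -0.38), and its siRNA.1 call was lost in 11 of 18 alternatives, among them without control library 1 or 3, any siRNA.1 library, or siRNA.2 library 3 (adjusted p from 0.0528 to 0.135 from edgeR).

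The other calls within the families came with siRNA.1 alone. STAT5A (-0.59), SOCS7 (-0.43), SOCS2 (-0.25), IRF2 (-0.23) and SOCS4 (-0.19) fell with siRNA.1 on the log2 scale, while their siRNA.2 values of -0.29, -0.09, -0.15, -0.02 and -0.08 did not pass. The siRNA.1 calls were lost for IRF2 without control library 1 or 2 or siRNA.1 library 3 (adjusted p = 0.189, 0.147 and 0.238 from edgeR), for SOCS4 without siRNA.1 library 1 (0.0676) and for SOCS2 without siRNA.1 library 3 (0.0511). limma lost all 3 calls as well (adjusted p from 0.076 to 0.188), and DESeq2 that of IRF2 (adjusted p = 0.0587). The difference between the siRNAs passed for SOCS7 (0.34) and not for STAT5A, SOCS2, IRF2 or SOCS4. JAK2 passed in neither comparison with control (-0.17 and 0.16) but differed between the siRNAs (0.33, adjusted p = 0.0250 from edgeR), a call lost without siRNA.1 library 1 or 2 or siRNA.2 library 1 (0.0683, 0.472 and 0.259), in DESeq2 (0.117) and in limma (0.394 and 0.355). JAK3, STAT4, STAT5B, IRF3, IRF5 and CISH passed in no comparison. IRF3, the constitutive IRF that starts interferon production, was at 28.5 ± 2.08 FPKM in control cells, 31.4 ± 0.873 with siRNA.1 and 30.4 ± 0.941 with siRNA.2.

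A difference in the mRNA proportion of STAT2 and IRF9, which work in the same complex, was not detected between knockdown and control. The ratio of STAT2 to IRF9 FPKM was 4.19, 4.13 and 3.53 in the control libraries, 3.37, 3.53 and 3.60 with siRNA.1 and 3.87, 3.71 and 4.20 with siRNA.2. Both knockdown groups overlapped control, while the siRNA.1 libraries lay below the siRNA.2 libraries, a difference that was not tested. The means were 3.95 ± 0.362 (mean ± SD, n = 3) in control cells, 3.50 ± 0.120 with siRNA.1 and 3.93 ± 0.251 with siRNA.2 (exact two-sided permutation p = 0.20 and 1 against control, where 3 against 3 libraries cannot go below 0.10). This is a ratio of mRNA levels and not of proteins.

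The textbook targets of ISGF3 were higher throughout. All 25 listed targets were tested and all 25 rose with each siRNA, in the main test and in all 18 alternatives, with a median log2 fold change of 1.92 and 1.78. RSAD2, the antiviral enzyme viperin, was read at 1.89, 1.70 and 1.57 FPKM in control cells, 22.06, 22.62 and 21.44 with siRNA.1 and 19.01, 18.52 and 18.09 with siRNA.2. IFIT1, which binds foreign RNA caps, rose 9.12-fold and 7.84-fold, and IFI6 rose 8.91-fold and 7.53-fold. Between the siRNAs, 14 of the 25 were lower and 2 higher with siRNA.2 (6.06% and 6.10% over all genes). With limma at most 2 of them were called lower, while the other alternatives called 11 to 14 lower. Both higher calls were lost in limma and without siRNA.1 library 3 or siRNA.2 library 1. On the same scale STAT2 rose by 0.33 and 0.22, and IRF7 had no detectable change. The list was drawn up with earlier results of these libraries known.

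Targets of GAS elements and of IRF1 rose for the most part, although IRF1 fell. Of 21 such genes, 15 rose and 3 fell with siRNA.1 and 14 rose and 2 fell with siRNA.2, with medians of 0.88 and 0.72. Over all genes, 15.0% rose and 15.2% fell with siRNA.1, and 15.8% rose and 15.1% fell with siRNA.2. The falls here were therefore no more than the share found over all genes. CXCL10, a chemokine for T cells, went from 9.32, 8.30 and 5.56 FPKM to 80.01, 89.07 and 86.96 with siRNA.1 and 113.44, 94.53 and 102.84 with siRNA.2. CXCL11 rose 2.86-fold and 3.60-fold, and IDO1, the tryptophan-degrading enzyme, rose 4.66-fold and 5.23-fold. Several of these genes, CXCL10 among them, also respond to ISGF3, so the list does not separate the complexes.

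Targets of STAT3 moved in both directions. Of 20 listed, 18 could be tested, and 8 rose and 5 fell with siRNA.1 while 6 rose and 6 fell with siRNA.2, with medians of 0.15 and 0.02. The shares over all genes were 15.0% higher and 15.2% lower for siRNA.1 and 15.8% and 15.1% for siRNA.2. With both siRNAs, 5 of the 18 were called higher and 4 lower. MYC rose from 45.1 ± 0.626 FPKM to 82.8 ± 1.03 and 80.7 ± 1.12, FOS rose 2.92-fold and 2.59-fold, and LCN2, an iron-carrier trap of epithelia, rose 2.09-fold and 1.95-fold. The 4 lower were JUNB (log2 -0.32 and -0.44), CCND1 (-0.32 and -0.35), PIM1 (-0.18 and -0.26) and MCL1 (-0.49 and -0.11). These 4 were named after their values were seen. Between the siRNAs, 3 of the 18 were higher with siRNA.2 and 3 lower (6.10% and 6.06% over all genes). The higher were MCL1 (0.38), FOSL1 (0.32) and BIRC5 (0.24), opposite in direction to STAT3, and the lower were MUC1, TIMP1 (-0.41) and BCL2L1 (-0.34). All but MUC1 were named after their values were seen. MUC1, a membrane mucin, stood at 3.25, 3.21 and 3.01 FPKM in control cells, 3.69, 3.36 and 3.10 with siRNA.1 and 1.70, 1.52 and 1.80 with siRNA.2, which is -0.99 on the log2 scale for siRNA.2 against siRNA.1 (adjusted p = 2.26e-12 from edgeR).

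**Figure D3:**
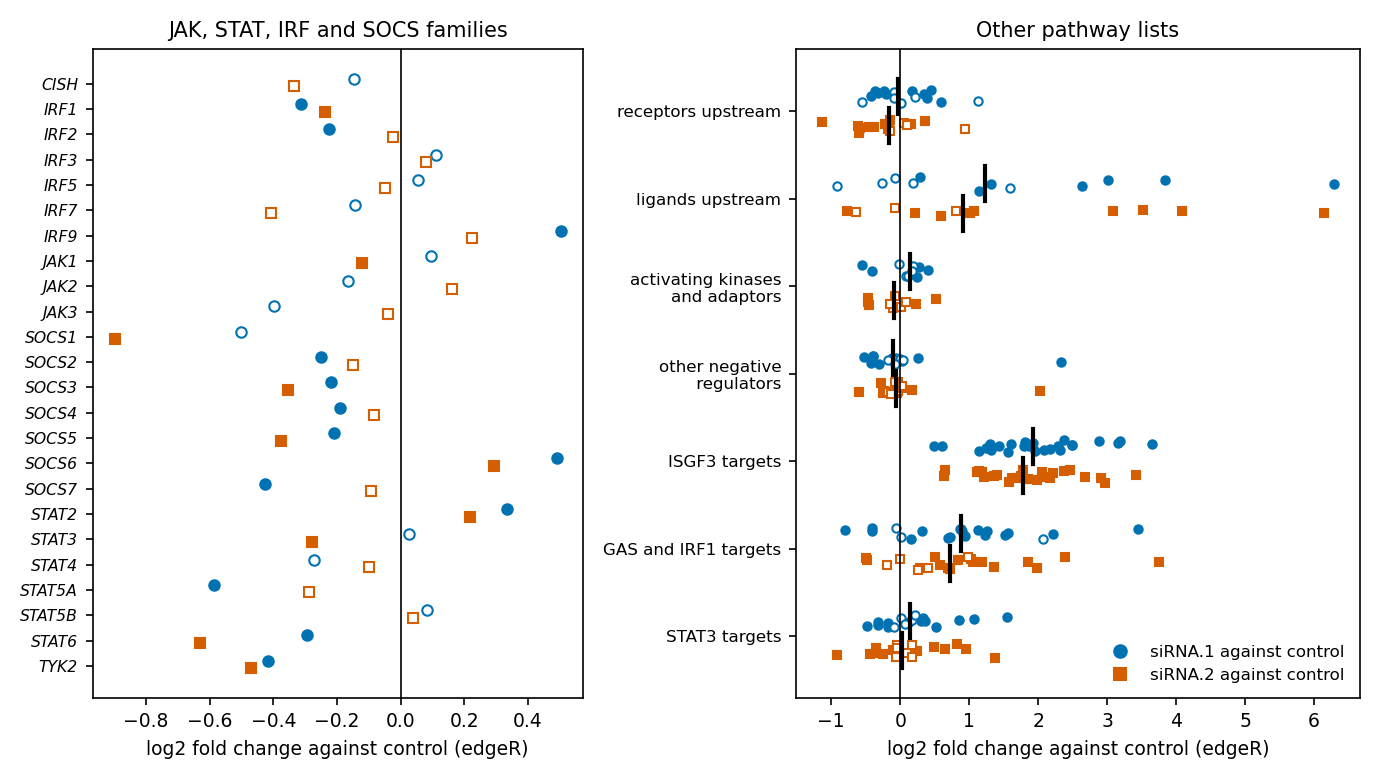
Log2 fold change against control from edgeR (x axis) for siRNA.1 (circles) and siRNA.2 (squares), filled where the adjusted p is under 0.05. The left panel shows the tested JAK, STAT, IRF and SOCS genes analysed here, with SOCS1 under siRNA.2 farthest from 0 (-0.90), and the right panel shows genes of 7 pathway lists with black bars at the list medians, which are 1.92 and 1.78 for ISGF3 targets and 0.15 and 0.02 for STAT3 targets.

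Upstream of the kinases, ligands rose and receptors went both ways. Of 17 ligands 12 could be tested. With siRNA.1, 7 rose and 0 fell (15.0% and 15.2% over all genes). With siRNA.2, 8 rose and 1 fell (15.8% and 15.1%). The count of 0 is edgeR's, and it was also 0 at an unadjusted p under 0.05, in DESeq2 and in limma. IFNL1, a type III interferon, counted 8, 3 and 8 reads in control cells, 32, 53 and 78 with siRNA.1 and 62, 66 and 80 with siRNA.2, a rise of 8.03-fold and 8.48-fold. IFNL2 went from 0, 0 and 1 counts to 22, 32 and 56 with siRNA.1 and 41, 36 and 42 with siRNA.2. IFNL3, whose sequence is so close to IFNL2 that their reads may be split, went from 5, 3 and 0 counts to 41, 48 and 37 and to 85, 49 and 45. IL11, a ligand of the gp130 family, was at 3.33 ± 0.331 FPKM in control cells, 2.84 ± 0.235 with siRNA.1 and 1.98 ± 0.417 with siRNA.2, a difference of -0.52 between the siRNAs that lost its call without siRNA.1 library 1 or 3 or siRNA.2 library 1 or 3 (adjusted p from 0.0591 to 0.220 from edgeR) and in limma (0.138 and 0.106).

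All 16 listed receptor chains were tested, and 5 rose and 5 fell with siRNA.1 (15.0% and 15.2% over all genes) while 2 rose and 8 fell with siRNA.2 (15.8% and 15.1%). IL10RB, the chain that brings TYK2 to type III interferon and IL-10 receptors, fell with both siRNAs (log2 -0.42 and -0.58), with the siRNA.1 call lost without control library 2 or 3 or siRNA.1 library 2 (adjusted p = 0.127, 0.187 and 0.180 from edgeR). In limma IL10RB also missed the threshold with siRNA.2 (adjusted p = 0.0666 and 0.0509 with pseudocounts of 0.1 and 1 FPKM). LIFR, the LIF-binding chain, fell (-0.33 and -0.59), with the siRNA.1 call lost in limma (adjusted p = 0.102 and 0.076). IL20RB rose (0.59 and 0.36). IL6R, the IL-6-binding chain, was read at 3.62, 3.11 and 3.41 FPKM in control cells, 4.33, 4.33 and 4.42 with siRNA.1 and 2.31, 2.40 and 1.99 with siRNA.2. It rose with siRNA.1 (0.34) and fell with siRNA.2 (-0.61), and the difference of -0.95 passed (adjusted p = 8.43e-18 from edgeR).

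Negative regulators other than SOCS proteins, and the kinases and adaptors that start interferon production, moved in both directions. Of 14 other negative regulators, 2 rose and 5 fell with siRNA.1 (all genes: 15.0% and 15.2%), and 2 rose and 4 fell with siRNA.2 (all genes: 15.8% and 15.1%), so the risers made up about the share found over all genes. USP18, an ISGF3-induced brake on the type I interferon receptor, rose from 7.33, 6.73 and 6.92 FPKM to 34.54, 36.62 and 36.93 with siRNA.1 and 29.28, 30.76 and 25.93 with siRNA.2, whereas SOCS1 was called lower with siRNA.2 and not called with siRNA.1. PIAS3, an inhibitor of STAT3, fell with both siRNAs (log2 -0.52 and -0.60), as did IRF2BP2 (-0.40 and -0.28). Of 10 activating kinases and adaptors, 3 rose and 2 fell with siRNA.1 and 2 rose and 3 fell with siRNA.2, beside the same shares over all genes. MAVS, the adaptor of the RNA sensors, fell (-0.41 and -0.47), as did IRAK4 (-0.56 and -0.46), while TRAF3 rose (0.40 and 0.53). MYD88, the adaptor of Toll-like and IL-1 receptors, rose with siRNA.1 (0.25) and fell with siRNA.2 (-0.45), with a difference of -0.70 (adjusted p = 2.88e-20 from edgeR). limma on log2(FPKM + 0.1) lost the siRNA.1 call of MYD88 (adjusted p = 0.0647) and the siRNA.2 call of IRAK4 (adjusted p = 0.0565).

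Across the 9 libraries, which share 3 groups, the levels of the 9 genes sorted into loose sets. Pearson's r of log2(FPKM + 0.1) was 0.89 between STAT2 and IRF9, 0.82 between JAK1 and STAT3, 0.88 between TYK2 and IRF1, 0.89 between TYK2 and SOCS3, and -0.91 between STAT2 and IRF1. IRF7 stayed within -0.27 to 0.14 with the other members. These values describe the group means as much as the libraries within groups. Of 11832 genes averaging 1 FPKM or more, those with the profile most like a member were P4HTM (r = 0.97), CDA and RELA for JAK1, ATPSCKMT (0.98), SLC45A4 and DYRK2 for TYK2, MPP3 (0.98), LINC00174 and SLC6A9 for STAT2, and FLNC (0.98), STX17 and PPCS for STAT3. For the IRF and SOCS genes they were CERK (0.996), CHP1 and SLC9A3R1 for IRF1, OGFRP1 (0.97), DSG3 and SRPX2 for IRF9, SLC25A43 (0.94), RABGAP1 and FBXO33 for SOCS1, and PTTG1IP (0.99), PPP1R13L and MFSD6 for SOCS3. For IRF7, with its few counts, the highest were YBEY (0.89), TAZ and SNORA9B.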

How the data were processed

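Poly(A)+ RNA of 9 TE13 libraries was sequenced, 3 each with control siRNA, siRNA.1 and siRNA.2, grouped by their titles. According to the study's methods, the authors aligned reads with STAR to GRCh38 and counted them per gene with featureCounts, and the labels' processing notes name featureCounts and GRCh38. Versions, the annotation release and the use of strand are not given in the sources used here. The authors deposited raw counts per gene, not normalized, and FPKM, the count scaled to the gene's exonic length and the library's total. All columns of per-library values were used.

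Counts were tested with edgeR 4.0.16 (R 4.3.3) in a single fit of the 3 groups with TMM factors, on 21395 genes averaging 0.1 FPKM or more, by the quasi-likelihood test with Benjamini-Hochberg adjustment over all genes tested and a threshold of 0.05. Standard errors are the absolute log2 fold change over the square root of F, and 95% intervals are not adjusted for multiple testing. FPKM serve as levels only. Ratios of FPKM were compared on the log2 scale by exact permutation tests. The fit was tested on simulated data. Libraries of a group differed by more than sampling noise (chi-square per degree of freedom 2.76 to 4.62), and the study calls them experimental repeats without saying whether these were separate cultures or transfections, so p-values measure the spread between these libraries. Alternatives were DESeq2 1.42.0, limma 3.58.1 on log2(FPKM + 0.1) and log2(FPKM + 1), 2 other scalings, 2 other filters, only the groups compared, a replicate block, a minimum change, and each library left out. The same alternatives for genes outside the 9 and for the lists were added after seeing the data.

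The 9 genes and all lists were chosen with earlier results of these data known. Genes named beside them are the tested members of the same families, some of which are not reported here, and, from each other list, the 3 with the largest mean change among those called the same way with both siRNAs at a mean of at least 1 FPKM, plus any that differed by at least 0.5 (log2) between the siRNAs. The STAT3 targets, ligands and cell type markers named after their values were seen are exceptions to this rule. Promoters came from RefSeq and exons from GENCODE release 44. Coordinates of genes are those of the deposited table.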

Additional observations from a re-analysis of the deposited data

Results flagged for a closer look

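Results are given here because the effects of the siRNAs differed in a direct test of siRNA.2 against siRNA.1 with edgeR (log2 difference, siRNA.2 minus siRNA.1, adjusted p under 0.05). Of the 9 genes these were JAK1 (-0.22, adjusted p = 0.000356) and STAT3 (-0.30, adjusted p = 1.40e-07), and for both every siRNA.2 library was below every siRNA.1 library. Of the other family members, JAK2 (0.33) and SOCS7 (0.34) were higher and STAT6 (-0.34) and SOCS6 (-0.20) lower with siRNA.2. The SOCS6 difference lost its call in the fits without siRNA.1 replicate 3 and without each siRNA.2 replicate (adjusted p from 0.0685 to 0.359). Of the receptors and ligands named by the rule above, IL6R (-0.95), IL11 (-0.52), LIFR (-0.27) and IL20RB (-0.23) were lower with siRNA.2. IL20RB lost its call without siRNA.1 replicate 1 or 3 or siRNA.2 replicate 1 or 3 (adjusted p from 0.0507 to 0.310), and LIFR without siRNA.2 replicate 3 (adjusted p = 0.0596). Among regulators, adaptors and targets, USP18 (-0.32), MYD88 (-0.70), MUC1 (-0.99), RSAD2 (-0.23), IFIT1 (-0.22) and IFI6 (-0.24) were lower and CXCL10 (0.30) and CXCL11 (0.33) higher with siRNA.2. With limma on log2(FPKM + 0.1) the calls of RSAD2, IFIT1, IFI6, CXCL10, CXCL11 and USP18 were lost (adjusted p from 0.0773 to 0.512), and on log2(FPKM + 1) those of the same genes except USP18 (adjusted p from 0.0576 to 0.420). DESeq2 lost that of CXCL10 (adjusted p = 0.216). JAK2, SOCS6, IL20RB, LIFR and IL11 lost theirs in both limma fits too (adjusted p from 0.106 to 0.394). No cause of these differences was tested, and the siRNA and its sequence-specific effects on other transcripts cannot be told apart with 2 siRNAs.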

How the results depend on the processing

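The 27 log2 fold changes of the 9 genes (3 comparisons each) were recomputed under up to 18 alternatives each. Of these recomputed values 448 kept their direction and side of the threshold, 22 lost the call, 5 gained it and 8 changed sign, all 8 from values that were not called. Recomputing the 75 called values of the other genes named by the rule above in the same way kept the call 1270 times and lost it 80 times, with 0 changes of sign. Requiring a log2 fold change of at least 1 in size left 847 genes for siRNA.1, 861 for siRNA.2 and 130 between them, with 0, 0 and 0 of the 9 genes. limma on log2(FPKM + 0.1) called 4 of the 9 with siRNA.2 and 1 between the siRNAs, where it called 607 genes, and on log2(FPKM + 1) it called 4, 1 and 834 genes. The cause of the fewer calls was not tested, and the numbers of all genes that limma called with siRNA.2 are not given here. With each library left out, between 4 and 5 of the 9 were called with siRNA.1, between 5 and 7 with siRNA.2 and between 2 and 4 between the siRNAs (4 without siRNA.2 replicate 1).

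Sign changes came in such fits only. STAT3 with siRNA.1 ranged from -0.0146 to 0.0481, TYK2 between the siRNAs from -0.1173 to 0.0084, and IRF7 from -0.7714 to 0.3604 with siRNA.1, from -0.9766 to 0.0741 with siRNA.2 and from -0.8319 to 0.3634 between them. Same-numbered libraries did not deviate together (r from -0.19 to 0.11 over 9 pairs), so the numbers were not taken to pair the libraries. With the replicate block the numbers of the 9 genes called were 5, 6 and 2, with JAK1 losing its siRNA.2 call (adjusted p = 0.0776 from edgeR). The numbers of all genes called in that fit are not given here, so these counts have no background beside them.

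IRF7 (1 to 10 counts per library), SOCS1 (17 to 54) and LINC00885 are limited by depth. Read sharing of IRF1 with IRF1-AS1 and of IRF9 with ENSG00000259529 was not resolved here.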
